A study of Homo sapiens with 12 samples.

Results

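RANBP3L, TMEM119, CYTIP and SLITRK6 are 4 genes whose transcripts were lower in all 3 treated arms of a microRNA-blocking experiment in U87 cells, an established human glioblastoma line. They were chosen by a rule that used these same measurements: a large fall after sgPNA-10b, and a level after both agents together that did not go down by the sum of the single effects. They are 4 of the 35741 genes in the count table, and all 4 passed the filter on low counts that kept 15715 genes. Their changes against control are therefore described below with errors and intervals and carry no test.

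U87 cells were profiled by mRNA sequencing in 4 groups of 3 libraries. Control cells were untreated. The PNA-10b group received sgPNA-10b at 150 nM, the PNA-21 group received sgPNA-21 at 150 nM, and the PNA-10b+21 group received both agents, each at 150 nM, for 72 h. Each agent is an anti-seed peptide nucleic acid, a synthetic strand on a peptide-like backbone that pairs with the seed of miR-10b or miR-21, and was carried into the cells by bioadhesive nanoparticles (BNP). No group here received empty nanoparticles or a control strand, so an effect of the strand and an effect of the particle cannot be told apart. The labels do not say whether the 3 libraries of a group came from separate cultures, so the p-values below take only the scatter among these libraries, which may be technical, as their yardstick. All 4 groups are the same cell line, and in bulk RNA a lower level cannot tell fewer expressing cells from less RNA per cell.

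MicroRNAs pair through their seed with matching sites in messenger RNAs and lower their stability and translation, and miR-21 and miR-10b are both abundant in glioblastoma. A blocked microRNA can release transcripts that carry its sites, while other transcripts can go up or down indirectly. The 4 genes have unrelated textbook roles. RANBP3L belongs to the family of Ran-binding proteins and is described as an export factor that carries the SMAD proteins of bone morphogenetic protein (BMP) signalling out of the nucleus. TMEM119 is a single-pass membrane protein, known as a marker of resident microglia and as a factor of osteoblast differentiation. CYTIP, the cytohesin-interacting protein, is a scaffold of lymphocytes and dendritic cells that binds cytohesins and dampens integrin adhesion. SLITRK6 is a leucine-rich-repeat membrane protein of neurons, inner ear and retina that shapes neurite growth and synapse formation.

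All 4 genes are protein-coding and lie on the minus strand of hg38 in GENCODE 29. RANBP3L (ENSG00000164188) spans chr5:36248434-36302114 with 14 exons in the transcript used here. TMEM119 (ENSG00000183160) spans chr12:108589846-108598320 with 2 exons. CYTIP (ENSG00000115165) spans chr2:157414619-157488961 with 8 exons, and SLITRK6 (ENSG00000184564) spans chr13:85792787-85806683 with 2 exons.

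The targeted microRNAs are miR-10b-5p and miR-21-5p. The RefSeq sequences at hand held no mature miR-10b-5p, so sites for miR-10b-5p were not searched. The mature miR-21-5p from RefSeq (GRCh38.p14, chr17:59841273-59841294, plus strand) is shown because its seed, bases 2 to 8 in capitals, is what sgPNA-21 is built to pair with. Below it stands the match to that seed found in the longest annotated 3′ UTR of RANBP3L, with the 7 matching bases in capitals and 11 bases on each side.
miR-21-5p: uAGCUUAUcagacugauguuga
RANBP3L site: ttcctaatatgATAAGCTtatatattcat
The RANBP3L site starts at base 513 of a 3′ UTR of 1220 nt and is a 7mer match without the adenine that would make it an 8mer. The UTRs of TMEM119 (1686 nt), CYTIP (1058 nt) and SLITRK6 (1196 nt) held no ATAAGCT. Among 12234 tested genes with an annotated 3′ UTR, 1269, or 10.37%, held that heptamer, and the median UTR length was 1395 nt. RANBP3L was lower, not higher, in the arms with sgPNA-21. The libraries hold mRNA and not mature microRNAs, so the block of either microRNA was not checked here.

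The upstream windows of the members are shown because the 4 genes were lower together. The RefSeq table (GRCh38.p14) held the 250 bases before the annotated start for 3 of the 4 genes, TMEM119 being the other. The windows are chr5:36301903-36302152 for RANBP3L, chr2:157444090-157444339 for CYTIP and chr13:85799420-85799669 for SLITRK6, each read 5′ to 3′ along the minus strand of the gene. The CYTIP and SLITRK6 windows lie inside the longer spans that GENCODE 29 gives these genes. Most of the RANBP3L window also lies inside its span, which reaches 36302114. Other starts of all 3 genes are thus annotated further upstream, and each start named below is the RefSeq one. Capitals mark the matches to the motifs searched.
RANBP3L: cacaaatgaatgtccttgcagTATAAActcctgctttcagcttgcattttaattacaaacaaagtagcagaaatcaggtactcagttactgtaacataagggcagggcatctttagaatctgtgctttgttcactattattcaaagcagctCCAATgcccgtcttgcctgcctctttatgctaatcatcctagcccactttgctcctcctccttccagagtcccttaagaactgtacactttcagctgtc
CYTIP: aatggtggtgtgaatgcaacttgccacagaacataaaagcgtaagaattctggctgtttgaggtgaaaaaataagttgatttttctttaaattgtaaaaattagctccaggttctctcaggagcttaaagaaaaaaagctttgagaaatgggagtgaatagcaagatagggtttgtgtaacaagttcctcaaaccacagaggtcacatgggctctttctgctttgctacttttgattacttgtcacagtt
SLITRK6: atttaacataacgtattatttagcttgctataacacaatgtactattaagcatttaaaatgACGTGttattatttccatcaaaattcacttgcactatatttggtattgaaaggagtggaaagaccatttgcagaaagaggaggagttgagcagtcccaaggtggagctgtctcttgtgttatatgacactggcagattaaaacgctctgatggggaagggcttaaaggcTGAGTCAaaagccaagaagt
Searched on both strands were the AP-1 motif TGANTCA, the cyclic AMP element TGACGTCA, the BMP SMAD motif GGCGCC, the TEAD motif GGAATG, the hypoxia element ACGTG, the SP1 motif GGGCGG, the CCAAT box CCAAT and the TATA box TATAAA. No match overlapped another. RANBP3L held a CCAAT box starting 99 bases and a TATA box starting 229 bases before the start. SLITRK6 held an AP-1 match starting 20 bases and a hypoxia element starting 189 bases before the start. CYTIP held none of the motifs. No motif was found in more than 1 of the 3 windows. Of 35116 human promoter windows of the same length, 6.6% held the AP-1 motif, 1.6% the cyclic AMP element, 16.4% the SMAD motif, 11.9% the TEAD motif, 18.5% the hypoxia element, 42.6% the SP1 motif, 32.0% the CCAAT box and 10.7% the TATA box. What the 3 windows had in common was a low share of G and C. It was 42.4% in RANBP3L, 37.2% in CYTIP and 37.6% in SLITRK6, against a median of 58.0% over all windows, and 17.1%, 8.4% and 8.9% of windows lay below them.

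Levels are given as CPM, the counts-per-million unit, after TMM scaling of library size. Libraries held 12846676 to 18305820 counted reads. The 4 members were low in U87 cells. In control, RANBP3L had 53 to 104 reads per library, CYTIP 101 to 130, SLITRK6 133 to 185 and TMEM119 227 to 320. Per kilobase of exon, TMEM119 stood highest of the 4 in control at 6.21 CPM per kb, above 57.2% of tested genes. CYTIP at 2.38, SLITRK6 at 2.31 and RANBP3L at 1.79 CPM per kb stood below the median tested gene, which was at 4.58.

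RANBP3L, the candidate SMAD export factor, was at 6.97, 3.12 and 7.99 CPM in the 3 control libraries. It was at 1.96, 0.589 and 1.19 CPM for PNA-10b, at 2.07, 0.751 and 2.43 CPM for PNA-21 and at 1.55, 1.56 and 1.82 CPM for PNA-10b+21. The lowest control library, the second, lay above the highest treated library by 1.29 times, the narrowest gap of the 4 genes, and the 3 treated arms overlapped one another. Means were 6.03 ± 2.57 CPM (SD, n = 3) in control, 1.24 ± 0.685 for PNA-10b, 1.75 ± 0.883 for PNA-21 and 1.64 ± 0.155 for PNA-10b+21, so the treated arms held 20.6%, 29.0% and 27.2% of the control level. The fitted log2 changes against control were -2.29 ± 0.37 (SE) for PNA-10b, -1.72 ± 0.34 for PNA-21 and -1.85 ± 0.35 for PNA-10b+21. With 10 to 46 reads in each treated library, RANBP3L had the widest errors of the set.

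TMEM119, the microglial and osteoblast membrane protein, was at 20.2, 13.4 and 25.8 CPM in control. It was at 6.74, 5.25 and 6.62 CPM for PNA-10b, at 9.33, 5.05 and 10.0 CPM for PNA-21 and at 9.05, 9.56 and 10.2 CPM for PNA-10b+21. Every PNA-10b+21 library lay above every PNA-10b library. PNA-21 overlapped PNA-10b through its low replicate 2 and PNA-10b+21 through its replicates 1 and 3. Means were 19.8 ± 6.24 CPM (SD, n = 3) in control, 6.2 ± 0.831 for PNA-10b, 8.14 ± 2.69 for PNA-21 and 9.59 ± 0.56 for PNA-10b+21, or 31.3%, 41.1% and 48.4% of control in the treated arms. The log2 changes were -1.66 ± 0.21, -1.24 ± 0.2 and -1.03 ± 0.2 in the same order. TMEM119 was the member with the smallest change in the combined arm.

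CYTIP, the cytohesin-binding scaffold, was at 8.71, 5.95 and 9.77 CPM in control. It was at 3.7, 3.18 and 3.0 CPM for PNA-10b, at 3.25, 2.53 and 2.9 CPM for PNA-21 and at 1.83, 2.97 and 2.95 CPM for PNA-10b+21. Control lay clear of all treated libraries. PNA-21 overlapped both other treated arms, and every PNA-10b+21 library lay just below every PNA-10b library. Means were 8.14 ± 1.97 CPM (SD, n = 3) in control, 3.29 ± 0.36 for PNA-10b, 2.89 ± 0.36 for PNA-21 and 2.59 ± 0.652 for PNA-10b+21, or 40.4%, 35.5% and 31.8% of control. Its log2 changes were -1.29 ± 0.19, -1.47 ± 0.19 and -1.65 ± 0.2, the most even of the 4 genes across arms.

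SLITRK6, the neuronal leucine-rich-repeat protein, was at 12.4, 7.9 and 10.7 CPM in control. It was at 4.13, 4.13 and 5.06 CPM for PNA-10b, at 2.95, 2.53 and 2.64 CPM for PNA-21 and at 2.12, 3.12 and 3.52 CPM for PNA-10b+21. All 6 libraries given sgPNA-21 lay below all 3 PNA-10b libraries. Means were 10.3 ± 2.28 CPM (SD, n = 3) in control, 4.44 ± 0.54 for PNA-10b, 2.71 ± 0.22 for PNA-21 and 2.92 ± 0.719 for PNA-10b+21, or 42.9%, 26.2% and 28.2% of control. The log2 changes were -1.21 ± 0.17, -1.92 ± 0.18 and -1.83 ± 0.18. SLITRK6 thus had the smallest change of the set in PNA-10b and the largest in PNA-21.

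**Figure D1:**
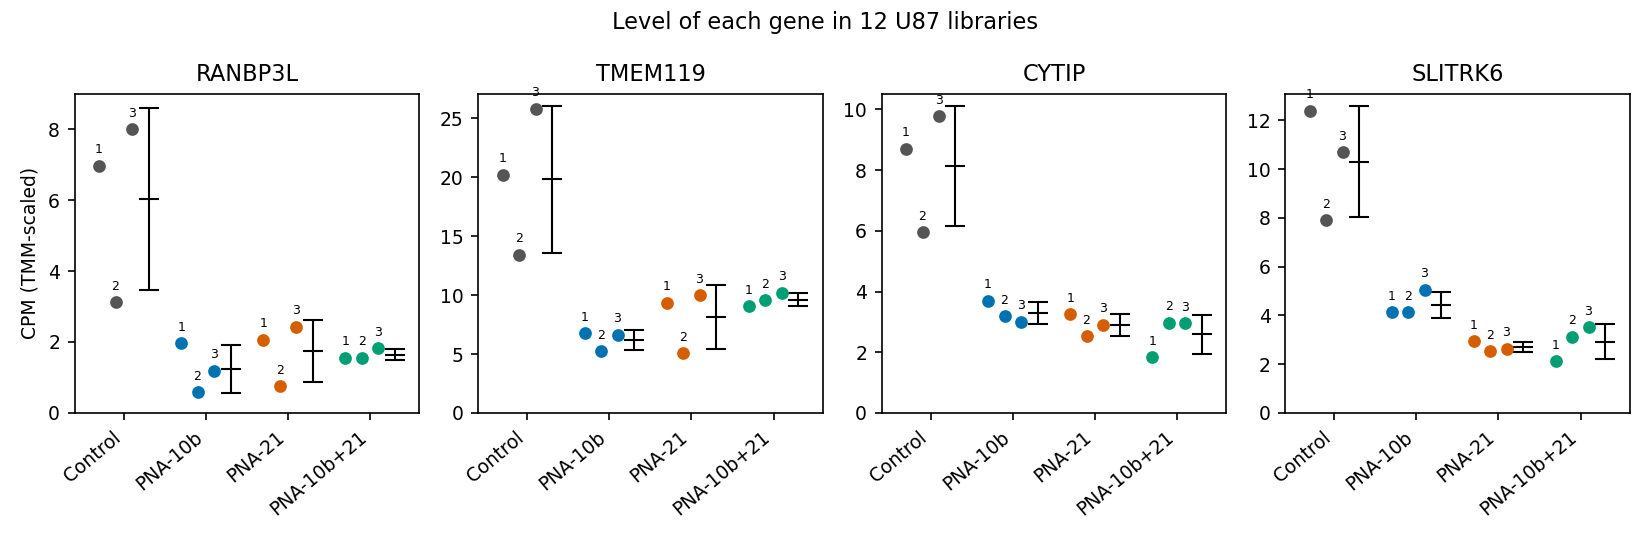
CPM (y axis, TMM-scaled, from 0) of RANBP3L, TMEM119, CYTIP and SLITRK6 in the 3 libraries of each group, with points numbered by replicate and black bars for the mean ± SD beside them. In each panel the 3 control libraries lie above all 9 treated libraries, and the second control library is the lowest control.

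In each of the 4 genes the 3 control libraries lay above all 9 treated libraries. Over all tested genes that held for 1225 of 15715, or 7.80%, and since the members were selected on their falls, nothing is read from their count. The gaps differed: the lowest control was above the highest treated library by 1.61 times for CYTIP, 1.56 times for SLITRK6, 1.32 times for TMEM119 and 1.29 times for RANBP3L.

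The low control library was the same for all 4 genes. Control replicate 2 was the lowest control library for each of them, as it was for 33.0% of all tested genes. PNA-21 replicate 2 was the lowest of its group for all 4 genes, against 32.7% of tested genes, and PNA-10b+21 replicate 1 was likewise the lowest for all 4, against 32.7%. In PNA-10b, replicate 2 was lowest for RANBP3L and TMEM119 and matched replicate 1 for SLITRK6 to the digits printed, and replicate 3 was lowest for CYTIP. The coefficients of variation in control were 42.6% for RANBP3L, 31.5% for TMEM119, 24.2% for CYTIP and 22.0% for SLITRK6. Each gene had a treated arm with a higher one, 55.1% for RANBP3L in PNA-10b, 33.1% for TMEM119 in PNA-21, and 25.2% for CYTIP and 24.6% for SLITRK6 in PNA-10b+21. Without Control replicate 2 all 12 log2 changes against control were larger in size, for example -2.62 in place of -2.29 for RANBP3L in PNA-10b. What set this library apart was not tested.

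The members were grouped as lowered alike in all treated arms. The differences between arms use the PNA-10b and PNA-10b+21 values that chose the genes, so they and their intervals are a description as well and no test is read from them. For RANBP3L and CYTIP no difference between treated arms had an interval that left out 0. For RANBP3L the difference PNA-21 minus PNA-10b was 0.57 on the log2 scale (95% interval -0.32 to 1.47), that of PNA-10b+21 minus PNA-10b was 0.44 (-0.48 to 1.36) and that of PNA-10b+21 minus PNA-21 was -0.13 (-0.97 to 0.71). Leaving out PNA-10b replicate 1 moved the 0.44 to 0.89 and leaving out PNA-10b replicate 2 moved it to 0.08, so it rests on single libraries. For CYTIP the same 3 differences were -0.17 (-0.62 to 0.27), -0.36 (-0.82 to 0.11) and -0.18 (-0.65 to 0.28). These intervals leave room for differences of up to 1.47 in RANBP3L and 0.82 in CYTIP, so they do not show that the arms were equal.

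The values of SLITRK6 and TMEM119 were less even between arms. SLITRK6 was lower with sgPNA-21 than with sgPNA-10b alone, by -0.71 in PNA-21 (95% interval -1.13 to -0.29) and by -0.62 in PNA-10b+21 (-1.04 to -0.2), and the latter 2 arms differed by 0.09 (-0.36 to 0.55). For TMEM119 the value PNA-10b+21 minus PNA-10b was 0.63 (0.16 to 1.1), PNA-21 minus PNA-10b was 0.42 (-0.05 to 0.9) and PNA-10b+21 minus PNA-21 was 0.21 (-0.23 to 0.66). In order of level, SLITRK6 ran from PNA-10b down to the 2 arms with sgPNA-21, and TMEM119 ran from PNA-10b+21 down through PNA-21 to PNA-10b. Between PNA-10b+21 and PNA-21 the intervals of all 4 genes held 0. The sign of that difference turned when PNA-21 replicate 3 was left out for RANBP3L (0.19), PNA-21 replicate 2 for TMEM119 (-0.02), PNA-10b+21 replicate 1 for CYTIP (0.03) and PNA-10b+21 replicate 3 for SLITRK6 (-0.07).

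The rule also used the lack of a summed effect, which is given here as a description. If the 2 single effects added on the log2 scale, RANBP3L would have been at a log2 change of -4.0 in PNA-10b+21, and it was at -1.85. TMEM119 would have been at -2.9 and was at -1.03, CYTIP at -2.76 and was at -1.65, and SLITRK6 at -3.13 and was at -1.83. The departures were 2.16 ± 0.56 (SE), 1.88 ± 0.3, 1.11 ± 0.3 and 1.3 ± 0.28 in that order, with 95% intervals of 0.99 to 3.32, 1.25 to 2.5, 0.5 to 1.73 and 0.73 to 1.88. In CPM, summed log2 effects would have put RANBP3L at 0.376 against the observed 1.64, TMEM119 at 2.65 against 9.59, CYTIP at 1.2 against 2.59 and SLITRK6 at 1.18 against 2.92. Adding the falls in CPM instead would have given levels below 0, from -1.96 for CYTIP to -5.48 for TMEM119, so no observed level could have met that sum.

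**Figure D2:**
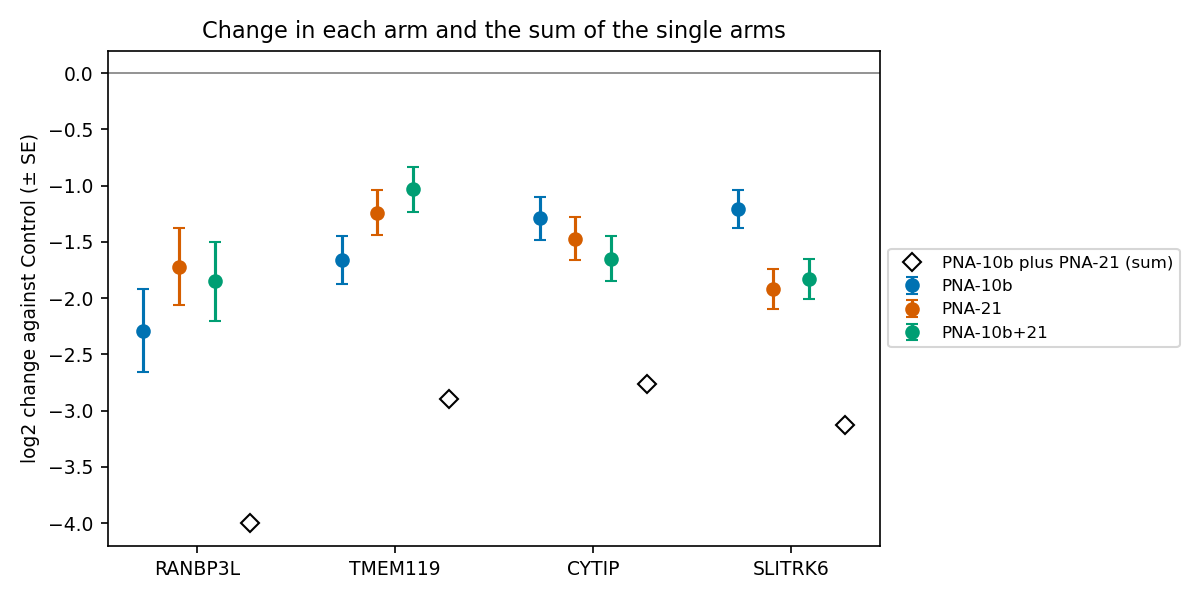
Log2 change against control (y axis, points ± SE of the fit) of each gene in PNA-10b, PNA-21 and PNA-10b+21, with an open diamond at the sum of the 2 single-arm changes. The combined arm lies near the single arms for all 4 genes and from 1.11 (CYTIP) to 2.16 (RANBP3L) above the sum.

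The other genes with the largest falls in PNA-10b also departed upward from the sum. Of the genes with a gene symbol, an adjusted p under 0.05 in PNA-10b, no overlap between PNA-10b and control and a mean log2 CPM that reached 1, 544 were lower, and the 10 with the largest falls include all 4 members, at ranks 1 (RANBP3L), 4 (TMEM119), 8 (CYTIP) and 10 (SLITRK6). The other 6 are the collagen gene COL3A1, the hyaluronan-degrading CEMIP, the vessel ligand ANGPT2, the collagen-binding integrin ITGA11 and the immediate-early genes FOSB and NR4A1. Their departures from the sum were 1.64 for COL3A1, 1.72 for CEMIP, 1.25 for ANGPT2, 1.53 for ITGA11, 1.52 for FOSB and 1.3 for NR4A1. All 10 were thus less low in PNA-10b+21 than the sum, and the members' range of 1.11 to 2.16 contains each of the other 6. SLITRK6 at -1.21 was just inside this list and EPPIN at -1.19 just outside it, with a departure of 1.0 for EPPIN. Ranking by a low PNA-10b value favours a departure above 0, since that value enters the departure with a minus sign. These single-arm changes share the control libraries with one another and with the departure, and no correlation between them is given.

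**Figure D3:**
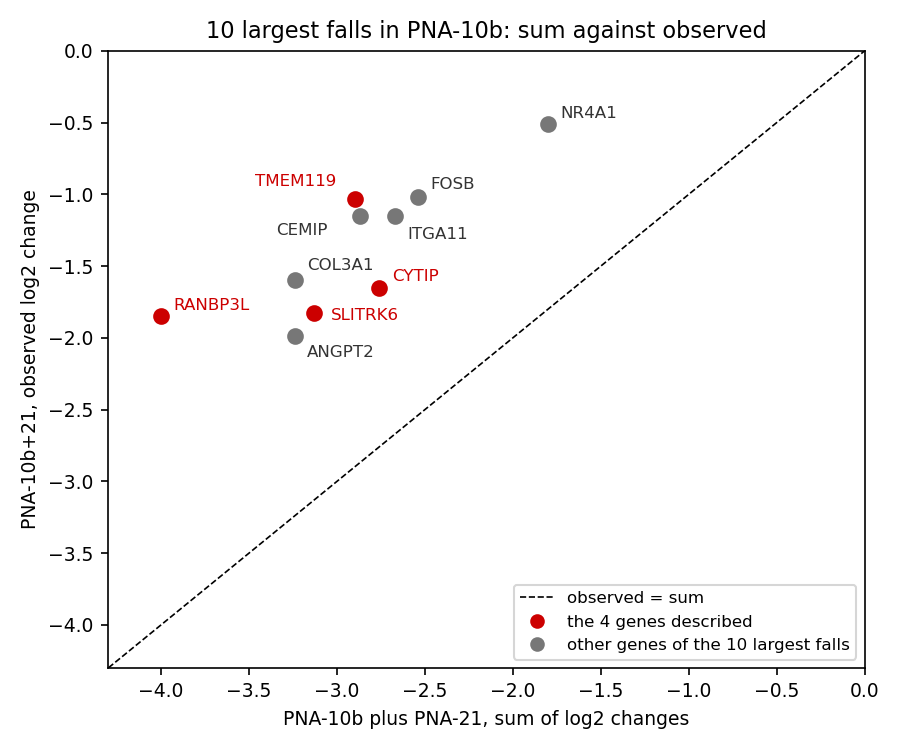
Observed log2 change in PNA-10b+21 (y axis) against the sum of the changes in PNA-10b and PNA-21 (x axis) for the 10 genes with the largest falls in PNA-10b, with the 4 members in red. Every point lies above the dashed line of equal values, the members among the other genes.

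The background over all tested genes was as follows, with edgeR's quasi-likelihood test and an adjusted p under 0.05. In PNA-10b, 587 of 15715 genes were lower (3.74%) and 432 higher (2.75%). In PNA-21, 2296 were lower (14.6%) and 2388 higher (15.2%), and in PNA-10b+21, 2112 were lower (13.4%) and 2131 higher (13.6%). The PNA-10b counts rested on single libraries: leaving out Control replicate 1 gave 292 lower and 178 higher, Control replicate 3 gave 265 and 152, and PNA-10b replicate 2 gave 208 and 98. The 2131 of the combined arm became 1334 without PNA-10b+21 replicate 1. A departure above the sum was called for 233 genes (1.48%), of 491 called in either direction. That total was 110, 1028 and 126 without Control replicates 1, 2 and 3, 851, 92 and 256 without PNA-10b replicates 1, 2 and 3, 124 without PNA-21 replicate 2, and 154 and 240 without PNA-10b+21 replicates 2 and 3. The members' contrasts chose them, so nothing is read from these shares for the members. The departures of the 4 members kept their sign whichever library was left out, at 1.79 to 2.61 for RANBP3L, 1.65 to 2.11 for TMEM119, 0.97 to 1.32 for CYTIP and 1.14 to 1.5 for SLITRK6.

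The genes whose 3 changes lay nearest to each member's were found by the root mean square difference of the 3 log2 changes, over 11947 tested genes with a symbol and an average log2 CPM of at least 1. They were chosen for these values, so their changes carry no test. For TMEM119 the nearest were CEMIP at a difference of 0.074, ITGA11 at 0.12 and FOSB at 0.148. CEMIP was at -1.67, -1.2 and -1.15 in PNA-10b, PNA-21 and PNA-10b+21, and its second control library, at 38.1 CPM against 65.3 and 83.7, was also the lowest of its group. For CYTIP the nearest were LRRC74B at 0.164, the glutamate receptor scaffold GRIP2 at 0.18 and the vessel ligand ANGPT1 at 0.218. For SLITRK6 they were the protease inhibitor EPPIN at 0.182, the plasminogen-binding lectin CLEC3B at 0.205 and again GRIP2 at 0.263. CLEC3B was at -1.08, -1.66 and -2.03, so like SLITRK6 it was lower in the arms with sgPNA-21.

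RANBP3L had no close match with steady replicates. Its nearest gene, the ribonuclease inhibitor RNH1 at 0.129, was at 0.402, 11.5 and 5.25 CPM in the 3 control libraries and from 0.573 to 4.3 CPM in the 9 treated ones, so its groups overlapped and none of its 3 contrasts passed the test. COL3A1 at 0.386 and ANGPT2 at 0.428 came next. All other nearest genes named here had smaller differences than these, from 0.074 to 0.263.

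Position was a property that the rule did not use, and the nearest tested gene on each side of a member was examined with the test over all genes. Of the 8 neighbours, SLC1A3 passed in all 3 arms, ACVR1C in 2 and the other 6 in none. Of all tested genes 3.74%, 14.6% and 13.4% were lower in PNA-10b, PNA-21 and PNA-10b+21. Those higher were 2.75%, 15.2% and 13.6%. With 8 neighbours, nothing about position is read from their calls. SLC1A3 encodes a glial glutamate transporter and starts 304.2 kb from RANBP3L. It was at 92.6, 81.0 and 101.0 CPM in control, 62.7, 56.6 and 66.2 for PNA-10b, 49.4, 44.1 and 51.1 for PNA-21, and 41.2, 49.7 and 51.5 for PNA-10b+21, with no overlap between control and any treated arm. SLC1A3 fell by 0.56 ± 0.08 on the log2 scale in PNA-10b (SE, adjusted p = 0.000385), by 0.92 ± 0.09 in PNA-21 (adjusted p = 1.7e-07) and by 0.95 ± 0.09 in PNA-10b+21 (adjusted p = 1.1e-07). Its changes were smaller than those of RANBP3L. On the other side, NADK2-AS1 lay 26.5 kb away and was at 0.03, 0.53 and -0.17 in the 3 arms with a control level of 0.95 CPM.

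ACVR1C, an activin-type receptor 37.8 kb from CYTIP, did not pass in PNA-10b (-0.2 ± 0.22, adjusted p = 0.678). It fell by 0.77 ± 0.23 in PNA-21 (adjusted p = 0.015) and by 0.83 ± 0.23 in PNA-10b+21 (adjusted p = 0.0114), and the PNA-21 call was lost without PNA-21 replicate 1. FAM133DP on the other side of CYTIP was at 0.23, -0.29 and 0.28. Next to TMEM119, the iron-sulfur scaffold ISCU at 84.5 CPM was at -0.16, 0.03 and -0.07 and SELPLG, the selectin ligand, at 0.18, 0.25 and 0.52. SLITRK6 stands alone in a wide stretch without tested genes, with PTMAP5 4101.7 kb and MIR4500HG 1620.5 kb away, and neither passed in any arm. The neighbours of TMEM119, SLITRK6 and, in PNA-10b, CYTIP thus gave no call, and NADK2-AS1, SELPLG, PTMAP5, MIR4500HG and FAM133DP were at or below 2.39 CPM in control, where small changes were not detectable.

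**Figure D4:**
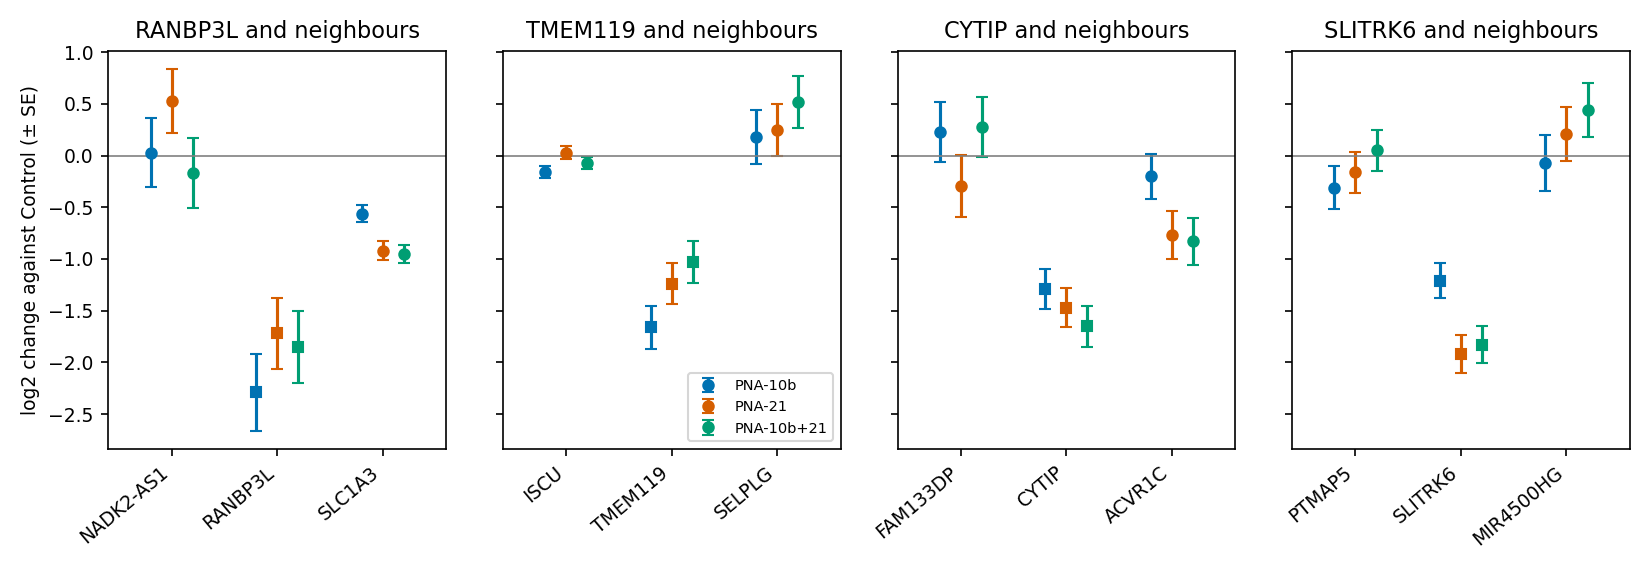
Log2 change against control (y axis, points ± SE) of each member (squares, middle of each panel) and its nearest tested gene on either side (circles), in the 3 treated arms. SLC1A3 beside RANBP3L and, in the arms with sgPNA-21, ACVR1C beside CYTIP were lower, and the other neighbours lie between -0.31 and 0.53.

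Genes around each member's known function were taken from lists, and a change was called with the test over all genes. For RANBP3L the first list was BMP signalling, of which 27 of 34 genes were tested. In PNA-10b 1 was higher and 3 were lower, in PNA-21 4 and 5, and in PNA-10b+21 4 and 8, with list medians of -0.06, 0.07 and -0.15 against 0.0, -0.01 and 0.0 over all genes. Over all tested genes 2.75%, 15.2% and 13.6% were higher and 3.74%, 14.6% and 13.4% lower in these arms. The list counts were near these shares in PNA-21. In PNA-10b and PNA-10b+21 the lower genes were a larger share of the list than of all genes, which was not tested. NBL1, a secreted BMP antagonist at 38.0 ± 2.34 CPM in control (SD, n = 3), fell in all arms, with log2 changes of -0.72 ± 0.08 (adjusted p = 4.37e-05), -0.99 ± 0.09 (5.96e-08) and -1.08 ± 0.09 (2.22e-08). ATOH8, a BMP-induced transcription factor, also fell, at -0.61, -0.76 and -0.64, and the inhibitory SMAD6 fell in the arms with sgPNA-21 (-0.53 and -0.48) and was at -0.28 in PNA-10b. The ligand BMP2 rose by 0.42 ± 0.12, 0.78 ± 0.12 and 0.64 ± 0.12. The BMP2 call in PNA-10b (adjusted p = 0.0435) was lost without Control replicate 1, 2 or 3, PNA-10b replicate 2 or 3, PNA-21 replicate 1 or PNA-10b+21 replicate 2, and also with DESeq2 and in a fit of only the 2 groups compared. The 4 higher genes of PNA-21 became 2 without Control replicate 1, 2 or 3 or PNA-21 replicate 1, and 1 without PNA-21 replicate 2, and the 4 of PNA-10b+21 became 2 without Control replicate 3 or PNA-10b+21 replicate 1.

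The second list around RANBP3L was the Ran cycle and nuclear transport, with 23 of 24 genes tested. In PNA-10b 4 were higher and 0 lower, in PNA-21 12 and 1, and in PNA-10b+21 14 and 0. Beside these, 2.75%, 15.2% and 13.6% of all genes were higher and 3.74%, 14.6% and 13.4% lower. List medians were 0.09, 0.17 and 0.17, so the shifts were small. KPNA2, an importin alpha, was at 192 ± 6.51 CPM in control (SD, n = 3) and rose by 0.28 ± 0.06 (adjusted p = 0.00553), 0.35 ± 0.06 (0.000119) and 0.39 ± 0.06 (3.27e-05). IPO5, an importin beta, rose by 0.17, 0.21 and 0.26, and the Ran GTPase activator RANGAP1 and the exportin CSE1L rose in the arms with sgPNA-21 by 0.3 and 0.31 and by 0.27 and 0.26. RANBP3, the closest relative of RANBP3L by name, was at 82.0 ± 1.97 CPM and at -0.05, 0.03 and 0.07, with no call in any arm. The KPNA2 call in PNA-10b was lost without PNA-10b replicate 2, and the IPO5 call there (adjusted p = 0.0361) without any 1 of the control replicates or PNA-10b replicate 1 or 2, and in a fit of only the 2 groups compared. The 4 of PNA-10b rested on single libraries: they were 1 without Control replicate 1, 2 without Control replicate 3 or PNA-10b replicate 1, and leaving out PNA-10b replicate 2 left 0. The single lower gene in PNA-21, NXF1, was lost without PNA-21 replicate 2.

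For TMEM119 the list was of osteoblast genes, with 12 of 25 tested. In PNA-10b 1 was higher and 2 were lower, in PNA-21 1 and 2, and in PNA-10b+21 1 and 3, with medians of -0.06, -0.15 and -0.1. The shares over all tested genes in these arms were 2.75%, 15.2% and 13.6% higher and 3.74%, 14.6% and 13.4% lower. SPARC, the matrix protein osteonectin, at 1655.8 ± 137 CPM in control (SD, n = 3), fell by 0.38 ± 0.06, 0.6 ± 0.06 and 0.62 ± 0.06 (adjusted p = 0.000741, 6.99e-07 and 3.21e-07). DLX5, an osteoblast transcription factor at 2.17 ± 0.615 CPM, was at -1.19 ± 0.29 (adjusted p = 0.0184), -1.63 ± 0.31 (0.000455) and -1.46 ± 0.3 (0.00114), the list gene with changes nearest in size to TMEM119. SPP1, osteopontin, rose in the arms with sgPNA-21 by 0.31 and 0.29, and PHEX, a peptidase of bone, rose in PNA-10b by 0.35. The DLX5 call in PNA-10b was lost without Control replicate 1, Control replicate 3 or PNA-10b replicate 2, and the PHEX call without Control replicate 3 or PNA-10b replicate 2. With PNA-10b replicate 3 left out 2 list genes were higher in PNA-10b, and with Control replicate 3 left out 2 were higher in PNA-10b+21.

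For CYTIP the list held cytohesins, other ARF exchange factors, ARF proteins and the adhesion pair LFA-1 and ICAM1, with 27 of 30 genes tested. In PNA-10b 0 were higher and 6 lower, in PNA-21 2 and 11, and in PNA-10b+21 0 and 8, with medians of -0.04, -0.06 and -0.06. Over all tested genes 2.75%, 15.2% and 13.6% were higher and 3.74%, 14.6% and 13.4% lower in these arms. The lower genes were a larger share of the list than of all genes in each arm, which was not tested. The 6 of PNA-10b were 3 without PNA-10b replicate 2. PSD4, an ARF6 exchange factor at 35.7 ± 3.09 CPM in control (SD, n = 3), fell by 0.7 ± 0.11 (adjusted p = 0.000487), 0.92 ± 0.11 (2.88e-06) and 0.78 ± 0.11 (1.84e-05). ICAM1, the ligand of LFA-1, fell by 0.44, 0.85 and 0.83, the exchange factor PSD3 by 0.24, 0.6 and 0.63 and IQSEC1 by 0.35, 0.48 and 0.38. The PSD3 call in PNA-10b (adjusted p = 0.033) was lost without Control replicate 3 or any 1 of the PNA-10b replicates. The cytohesins that CYTIP is named for split: CYTH2 and CYTH4 fell in the arms with sgPNA-21 (-0.29 and -0.27 for CYTH2, -0.56 and -0.44 for CYTH4), CYTH1 passed in none (0.02, 0.07 and 0.08), and CYTH3 passed in PNA-21 alone at 0.21 (adjusted p = 0.0488), a call also lost with DESeq2, with a replicate block and in a fit of only the 2 groups compared. The 2 higher genes of PNA-21, CYTH3 and ACAP2, became 0 without Control replicate 3 or PNA-21 replicate 2 and 1 without any other library except PNA-21 replicate 3, and 1 gene was called higher in PNA-10b+21 without Control replicate 1. Of LFA-1 itself, ITGAL was at 1.34 CPM with no call and ITGB2 was below the filter.

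For SLITRK6 the list held the SLITRK family, its receptor partners and related synaptic adhesion genes, with 22 of 45 tested. In PNA-10b 0 were higher and 2 lower, in PNA-21 4 and 4, and in PNA-10b+21 3 and 5, with medians of -0.02, -0.05 and -0.05. Of all tested genes 2.75%, 15.2% and 13.6% were higher and 3.74%, 14.6% and 13.4% lower in these arms. The PNA-21 counts were near those shares. SLITRK5 was the only other family member tested. It was at 49.7 ± 0.752 CPM in control (SD, n = 3), at -0.03 ± 0.06 in PNA-10b (adjusted p = 0.829), and rose by 0.32 ± 0.06 in PNA-21 (0.000709) and 0.34 ± 0.06 in PNA-10b+21 (0.000401), a direction opposite to that of SLITRK6. PTPRF, a receptor phosphatase of the family that binds SLITRK proteins, fell by 0.74 ± 0.14 and 0.86 ± 0.14 in those arms and was at -0.08 in PNA-10b. LRIG1, a leucine-rich-repeat receptor inhibitor, fell there by 0.64 and 0.7, and LRRN3 by 0.51 and 0.71. The 2 lower genes of PNA-10b, LRRTM4 and ADGRL1, were 0 without Control replicate 1, Control replicate 3, PNA-10b replicate 1 or PNA-10b replicate 2 and 1 without Control replicate 2. They were also 0 with DESeq2, without the filter on low counts and in a fit of only the 2 groups compared. In PNA-10b 1 gene was called higher without PNA-21 replicate 1 or 3. The 4 higher of PNA-21 became 2 without Control replicate 1 or PNA-21 replicate 2, and the 3 of PNA-10b+21 became 1 without Control replicate 1 or PNA-10b+21 replicate 1.

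TMEM119 and CYTIP are best known from immune cells, so markers of other cell types were counted beside them. Of 19 microglia and macrophage markers 13 had a row, and 8 of these had at most 5 reads in every library. CX3CR1 reached 2 reads, P2RY13 and TREM2 1 read and SPI1 3 reads in any library, and 3 markers passed the filter, SALL1, OLFML3 and CSF1R, which are not confined to microglia. The summed level of the 13 ran from 184.7 to 207.7 CPM in control, 161.5 to 168.7 for PNA-10b, 135.5 to 138.1 for PNA-21 and 128.1 to 150.6 for PNA-10b+21, so it was lower in all treated arms. SALL1, OLFML3 and CSF1R, at 119.0, 61.2 and 17.4 CPM in control, made up nearly all of that sum. OLFML3 fell by 0.59, 0.93 and 0.9 and CSF1R by 0.36, 0.72 and 0.59, and SALL1 fell by 0.35 and 0.36 in the arms with sgPNA-21. The CSF1R call in PNA-10b was lost without Control replicate 1 or PNA-10b replicate 2. Of all tested genes 3.74%, 14.6% and 13.4% were lower in PNA-10b, PNA-21 and PNA-10b+21. The markers CX3CR1, P2RY13, TREM2 and SPI1 were thus at or near 0 in all libraries, in which TMEM119 had 74 to 320 reads.

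Of 18 lymphocyte and dendritic cell markers 16 had a row, 6 passed the filter and 5 had at most 5 reads in every library. CD3E reached 1 read, and PTPRC, the pan-leukocyte CD45, ran from 0 to 29 reads. The summed level ran from 29.5 to 32.0 CPM in control, 31.2 to 35.7 for PNA-10b, 36.9 to 45.2 for PNA-21 and 39.8 to 45.4 for PNA-10b+21, so it was higher in the arms with sgPNA-21 while CYTIP was lower. Within the list, ITGAX, the integrin CD11c of dendritic cells, rose by 0.42, 0.62 and 0.82 in PNA-10b, PNA-21 and PNA-10b+21, and its PNA-10b call (adjusted p = 0.0436) was lost in 11 alternatives, among them DESeq2, the replicate block and leaving out Control replicate 1 or 3 or any 1 of the PNA-10b or PNA-21 replicates. The actin bundler LCP1 rose by 0.83 and 0.73 and the chemokine receptor CCR7 fell by 1.05 and 0.78 in PNA-21 and PNA-10b+21. Osteoblast lineage markers summed to 98.2 to 102.9 CPM in control and 96.9 to 112.5 over the treated arms, with SP7, BGLAP, IBSP and DMP1 at no more than 4 reads in any library. Neuron markers, of which 12 of 14 had a row and 7 were tested, summed to 157.4 to 164.8 CPM in control, 143.7 to 154.9 for PNA-10b, 133.0 to 138.2 for PNA-21 and 127.5 to 138.8 for PNA-10b+21. SNAP25 and MAP2, at 83.5 and 55.2 CPM in control, made up most of that sum. They and GAP43 were called lower in the arms with sgPNA-21. None of the tested neuron markers passed in PNA-10b, and SYP, SYT1, TUBB3 and NEFM passed in no arm. Beside these calls, 3.74%, 14.6% and 13.4% of all tested genes were lower in PNA-10b, PNA-21 and PNA-10b+21. Those higher were 2.75%, 15.2% and 13.6%, and these shares also stand beside the other marker lists. Endothelial markers summed to 13.4 to 15.8 CPM in control and 11.9 to 16.2 over the treated arms. Within them PECAM1, at 4.12 CPM in control, was called lower in PNA-10b (-1.0) and PNA-21 (-0.83), each call lost in 4 alternatives. PECAM1 was at -0.48 in PNA-10b+21 without a call, and VWF, KDR, TEK and ERG passed in no arm. Glioma markers summed to 15043.7 to 16997.2 CPM in control, 14271.7 to 15502.0 for PNA-10b, 12470.0 to 13403.7 for PNA-21 and 12810.9 to 13739.3 for PNA-10b+21. These cells carried the mesenchymal glioma genes TGFBI, TNC, VIM and CD44 at 5196.3, 4040.4, 1842.4 and 1454.4 CPM in control. SOX2 and S100B had at most 4 reads in any library, and the other 13 of the 15 genes on this list passed the filter. The part of any of these marker lists in the members' levels was not tested.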

How the data were processed

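Polyadenylated RNA of 12 U87 libraries was sequenced after stranded mRNA library preparation, per the labels' protocols. HISAT2 2.1.0, SAMtools 1.7, HTSeq 0.11.0 and hg38 are named in the submitters' processing notes. The values are raw counts per gene as the authors deposited them, 12846676 to 18305820 per library, and their number limits the precision of low genes.

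Genes with low counts were removed with filterByExpr (minimum count 10), which left 15715 of 35741. The counts were scaled by TMM and fitted with edgeR 4.0.16 (quasi-likelihood) in R 4.3.3 over all 4 groups in 1 model, with Benjamini-Hochberg adjustment over all tested genes and a threshold of 0.05. The departure from additivity is the change in PNA-10b+21 minus the sum of the changes in PNA-10b and PNA-21. Intervals are 95% intervals of the fit. The procedure was tested on simulated data.

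The members, the 5 gene lists and the 6 marker lists were chosen with earlier results of these data known. Named genes were the members, the 10 largest falls in PNA-10b and the genes just outside them, the 3 nearest genes to each member, the nearest tested neighbours, and in each list up to 4 genes with the smallest p and the family members of its title. Genes named as lost or sole calls and the marker genes were chosen after their values were seen. The microglia list is given without 1 marker, which is not reported here. Positions and 3′ UTRs came from GENCODE 29, to which 34564 genes matched by identifier. Sequences of promoters and miR-21-5p came from RefSeq (GRCh38.p14). Alternatives were DESeq2 1.42.0, its size factors in edgeR, no filter, only the groups compared, a replicate block, and leaving out each library.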

Additional observations from a re-analysis of the deposited data

Results flagged for a closer look

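Among the nearest neighbours of the members and the genes of the lists and marker lists, 11 had a departure from the sum of the single-agent changes that passed the test over all genes. The departure is the difference between the effect of sgPNA-10b with and without sgPNA-21. It was 0.53 ± 0.12 on the log2 scale (SE, adjusted p = 0.0239 by edgeR's quasi-likelihood test) for SLC1A3, the glutamate transporter gene next to RANBP3L. It was 0.64 ± 0.13 (adjusted p = 0.0109) for the BMP antagonist NBL1 and 0.73 ± 0.17 (0.0239) for ATOH8. In the CYTIP list PSD4 had 0.84 ± 0.16 (0.00864), IQSEC1 0.45 ± 0.1 (0.018) and IQSEC2 0.37 ± 0.09 (0.0325), and SPARC had 0.36 ± 0.09 (0.0334). Of the markers, CHI3L1 had 0.91 ± 0.17 (0.00822), NES 0.63 ± 0.14 (0.0239), OLFML3 0.63 ± 0.14 (0.0208) and CSF1R 0.49 ± 0.12 (0.0387). All 11 departures were above 0. Tested were 27, 23, 12, 27 and 22 genes in the 5 gene lists and 3, 6, 7, 2, 5 and 13 in the 6 marker lists. Some genes stand in both kinds of list, and the neighbours come on top. Over all 15715 tested genes 491 passed, 233 above 0 (1.48%) and 258 below. The lists were chosen with earlier results of these data known, so nothing is read from the shared sign. The calls of NBL1, PSD4 and CHI3L1 held in all 16 alternatives, with highest adjusted p of 0.0487, 0.0369 and 0.038. The others were lost in 3 (IQSEC1), 6 (IQSEC2, SLC1A3, OLFML3 and NES), 7 (ATOH8), 8 (SPARC) and 10 (CSF1R) of the 16. All 8 of these were lost without Control replicate 3 or PNA-10b replicate 2, 7 of them, all but NES, without Control replicate 1, and CSF1R also with DESeq2 and without the filter.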

How the results depend on the processing

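The members' log2 changes against control and departures from additivity kept their direction in every alternative run. With 1 library left out, RANBP3L ran from -2.74 to -1.93 in PNA-10b and SLITRK6 from -2.1 to -1.77 in PNA-21, and the RANBP3L difference between PNA-10b+21 and PNA-10b ran from 0.08 to 0.89. Counts over all genes moved more. Leaving out 1 library gave 208 to 676 genes lower and 98 to 576 higher in PNA-10b, 1334 to 2169 higher in PNA-10b+21, and 92 to 1028 departing from additivity. Without the filter 690 were higher in PNA-10b and 1074 departed. DESeq2 called 626 departures. The 4 differences between PNA-10b+21 and PNA-21, whose intervals held 0, changed sign with 1 library left out, running from -0.45 to 0.19 for RANBP3L, -0.02 to 0.4 for TMEM119, -0.3 to 0.03 for CYTIP and -0.07 to 0.29 for SLITRK6. The causes were not tested. Taken over all tested genes, samples with the same replicate number did not deviate together. Correlations were -0.058 to 0.109 over 18 pairs against -0.087 to 0.118 over the other 36. Whether the numbers pair the libraries in a part of the genes was not tested, and the labels do not state a pairing. The fit with a replicate block called 709 genes lower and 562 higher in PNA-10b and 710 departures, against 587, 432 and 491 without it. Depth limits RANBP3L most, with 10 to 46 reads in each treated library.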
